A study of Caenorhabditis elegans with 12 samples.

Results

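Whole worms of the *alh-6(lax105)* mutant were compared with whole WT worms at L4, the last larval stage of *Caenorhabditis elegans*. The comparison takes 6 of the 12 libraries of the series, 3 from *alh-6(lax105)* and 3 from WT, chosen by genotype and stage in the sample labels. It covers 13851 of the 46726 genes in the table, those that reached 1 FPKM in 3 or more of these libraries. FPKM gives reads relative to the length of the gene and the size of the library. The *alh-6* animals carry the allele lax105 and the WT animals are N2, and the labels give N2 Bristol as the strain of both. Both genotypes were grown on concentrated OP50 bacteria and collected 48 hr after synchronized L1 larvae were placed on the plates. Day 3 adults of both genotypes, collected at 120 hr, enter only where an L4 value is set beside them. The labels give whole worms as the source, and give no number of animals for a library and no stage within L4. A difference in progress through L4 and a difference at equal progress therefore cannot be told apart. In whole animals, fewer cells of a type and less RNA in each cell cannot be told apart either.

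*alh-6* encodes the mitochondrial enzyme that turns 1-pyrroline-5-carboxylate (P5C) into glutamate, the last step in the breakdown of proline. L4 is a busy stage for the epidermis, which lays down the adult cuticle from collagens and a transient apical matrix under the larval cuticle that is about to be shed. In the hermaphrodite gonad, germ cells become sperm during L4 and oocytes afterwards, and the intestine begins to supply yolk proteins near adulthood. Many cuticle genes are transcribed in a pulse in each molting cycle, in an order that differs from gene to gene.

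The reads on genes were 23575173, 19248229 and 20814044 in the *alh-6* libraries and 21228133, 20904286 and 19906810 in the WT libraries. On the first principal component of log2(FPKM + 0.1), which held 37.8% of the variance, the *alh-6* libraries lay between −28.1 and −25.5 and the WT libraries between 21.5 and 29.3. All 5 body wall muscle, 7 intestinal, 7 epidermal, 7 neuronal, 4 germline and 4 oocyte markers had at least 1 FPKM in every L4 library, as did 4 of 5 pharyngeal markers. Summed over 5 male markers, the level was 0.929 to 1.38 FPKM in *alh-6* libraries and 0.541 to 0.868 FPKM in WT libraries. Summed over the epidermal markers the level was 178.5 to 196.3 FPKM in *alh-6* libraries and 114 to 121 FPKM in WT libraries. Only 2 of these 7 markers were higher at an adjusted p under 0.05 in the limma fit below, the collagens *dpy-7* and *rol-6*. *rol-6* alone reached 109.8 FPKM, so this sum largely restates these 2 genes and is no measure of epidermal RNA as a whole. Summed over the oocyte markers the level was 253 to 296 FPKM in *alh-6* libraries and 371 to 406 FPKM in WT libraries. All 5 markers of embryos were under 1 FPKM in every L4 library.

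*alh-6* itself (WBGene00000112) had 60.9, 62.6 and 60.6 FPKM in *alh-6* libraries, against 68.4, 70.3 and 70.5 FPKM in WT libraries. The 3 mutant values lay below the 3 WT values, but the log2 fold change of −0.18 ± 0.06 (SE, adjusted p = 0.0637) did not pass the threshold of an adjusted p under 0.05. A level of mRNA does not show whether the protein is active, so it is no check of the allele.

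Of the genes tested with limma on log2(FPKM + 0.1), 1134 were higher (8.19%) and 990 lower (7.15%) in *alh-6* animals than in WT. The counts of listed genes below are to be read beside these shares. They include 39 higher genes that reached 1 FPKM in the *alh-6* libraries alone. They also include 24 lower genes that reached it in the WT libraries alone. A change of at least 2-fold was found for 461 genes (3.33%), of which 339 were higher (2.45%), 122 lower (0.881%) and 440 are protein coding. Over all genes the median log2 fold change was −0.03. All 3 *alh-6* values lay above all 3 WT values for 17.3% of the genes tested and below them for 20.3%. Such a separation was thus common. For the genes named below it describes their values and adds no support to the fit. In the fit of all 12 libraries together, 968 genes were higher and 1337 lower, so that the balance of directions depended on the model. In that fit the genotype effect differed between L4 and day 3 adults for 1070 of 14497 genes (7.38%). The number of lower genes was 643 without *alh-6* replicate 1, 501 without WT replicate 1, 546 without WT replicate 2 and 540 without WT replicate 3.

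**Figure D1:**
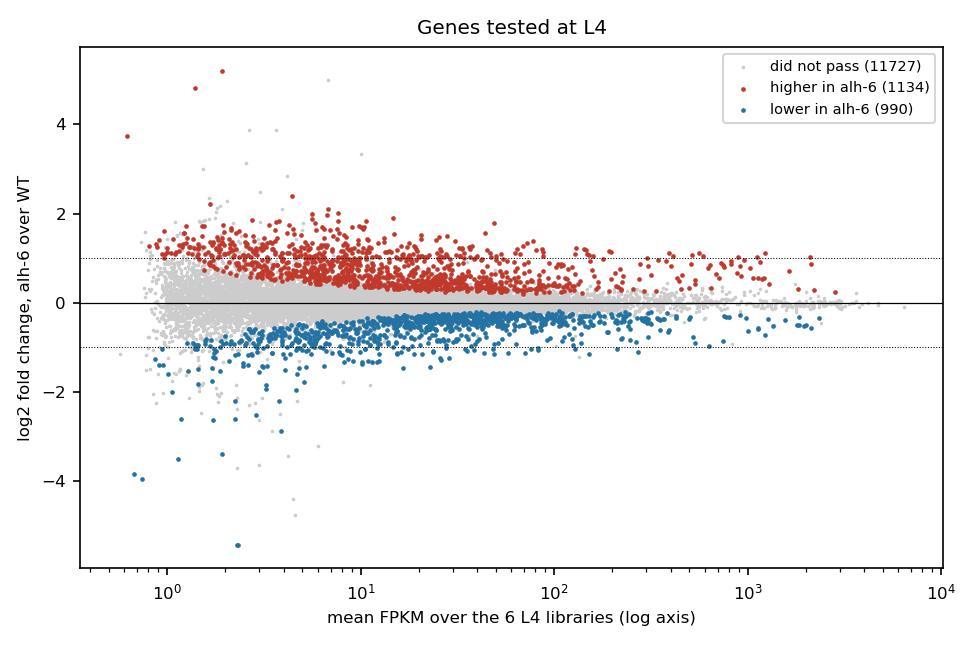
Each point is 1 of the 13851 genes tested at L4, with its mean FPKM over the 6 libraries on a log axis and its log2 fold change (*alh-6* over WT) on the other. Red points are the 1134 genes higher in *alh-6*, blue points the 990 lower genes and grey points the 11727 genes that did not pass, and dotted lines mark 2-fold.

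Most of the largest rises at L4 were in genes of the cuticle. Of the 12 genes with the largest rise at a mean of at least 5 FPKM, 4 were annular furrow collagens (*dpy-2*, *dpy-7*, *dpy-8* and *dpy-9*), 4 were lipocalin-related genes (*lpr-3*, *lpr-4*, *lpr-5* and *lpr-6*) and 1 was a further collagen, *col-176*. Over 8 lists of cuticle and molting genes, joined after their values had been seen, 258 genes were tested, which is 1.86% of all genes tested. They made up 72 of the 339 genes that were at least 2-fold higher (21.2%) and 4 of the 122 genes that were at least 2-fold lower (3.28%). Of the 72, 6 reached the filter on low values through the *alh-6* libraries alone, and without all genes of that kind the share was 66 of 301 (21.9%). These shares describe the lists and test nothing.

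All 6 annular furrow collagens rose at least 2-fold. These collagens form the furrows that ring the cuticle, and mutants of each are short and fat (Dumpy). *dpy-2* had 13.6, 9.35 and 10.3 FPKM in *alh-6* libraries, against 2.52, 2.63 and 2.23 FPKM in WT libraries. Its log2 fold change was 2.11 ± 0.17 (SE, adjusted p = 0.000185). *dpy-7*, the collagen most used to mark these furrows, had 17.2, 14.8 and 18.4 FPKM in *alh-6* libraries, against 4.45, 5.55 and 3.92 FPKM in WT libraries (log2 fold change 1.84 ± 0.15, adjusted p = 0.0002). For both genes the lowest mutant value was above 2 times the mean of WT. *dpy-3* had 16.4, 12.6 and 12.5 FPKM in *alh-6* libraries, against 3.62, 4.52 and 4.48 FPKM in WT libraries (log2 fold change 1.69 ± 0.15, adjusted p = 0.000247). *dpy-8* had 17.9, 14.01 and 14.4 FPKM in *alh-6* libraries, against 3.36, 6.25 and 4.72 FPKM in WT libraries (log2 fold change 1.71 ± 0.21, adjusted p = 0.00131). *dpy-9* had 15.9, 13.5 and 15.7 FPKM in *alh-6* libraries, against 4.26, 4.32 and 4.83 FPKM in WT libraries (log2 fold change 1.73 ± 0.12, adjusted p = 0.00017). None of the 6 genes had a mutant value within the WT range. *dpy-10* had 11.2, 8.69 and 9.82 FPKM in *alh-6* libraries, against 2.64, 3.12 and 3.49 FPKM in WT libraries (log2 fold change 1.65 ± 0.15, adjusted p = 0.000319), and it shares 780 exon bases on the same strand with the gene T14B4.19, so that reads of the pair could be divided in more than one way. Summed over the list, the level was 82.1 ± 9.73 FPKM in *alh-6* and 23.6 ± 2.77 FPKM in WT (SD, n = 3 each). In day 3 adults the same sum was 5.94 ± 0.987 FPKM in *alh-6* and 8.06 ± 0.386 FPKM in WT (SD, n = 3 each).

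**Figure D2:**
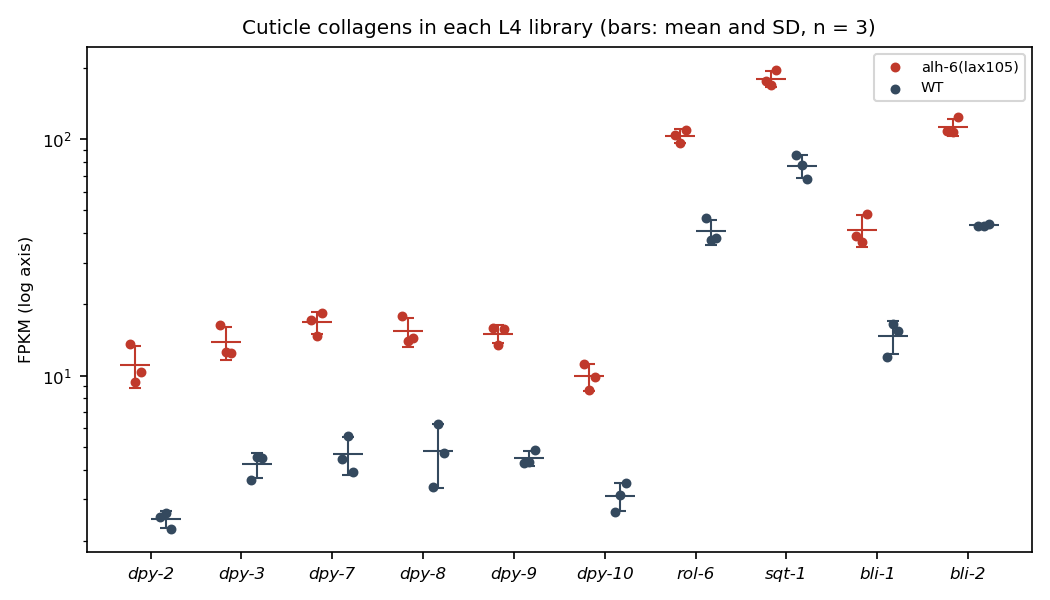
FPKM on a log axis of 6 annular furrow collagens and 4 further cuticle collagens in each L4 library, with *alh-6(lax105)* in red on the left and WT in dark blue on the right, and bars for the mean and SD of 3 libraries. For each of these 10 genes all 3 red points lie above all 3 dark blue points.

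The other collagens in which mutations change body shape, movement or the surface of the worm moved the same way with 1 exception. Of 12 tested genes of this list (*dpy-4*, *dpy-5*, *dpy-13*, *dpy-17*, *sqt-1*, *sqt-2*, *sqt-3*, *rol-6*, *rol-8*, *bli-1*, *bli-2* and *lon-3*), 11 were higher, 9 of them at least 2-fold, and the median log2 fold change was 1.19. The remaining gene of the list in the table, *dpy-14*, did not reach the filter on low values. *rol-6*, the collagen of the Roller phenotype, had 104.6, 96.5 and 109.8 FPKM in *alh-6* libraries, against 46.5, 37.5 and 38.4 FPKM in WT libraries (log2 fold change 1.35 ± 0.09, adjusted p = 0.00017). *sqt-1* had 176.4, 169 and 197 FPKM in *alh-6* libraries, against 86.02, 77.8 and 68.2 FPKM in WT libraries (log2 fold change 1.23 ± 0.09, adjusted p = 0.000185). The mutant values of both genes were all above the WT values, by a similar ratio. *bli-1* and *bli-2* encode collagens of the struts that join the layers of the adult cuticle, and they changed most in this list. *bli-1* had 38.9, 36.8 and 48.5 FPKM in *alh-6* libraries, against 12, 16.6 and 15.4 FPKM in WT libraries (log2 fold change 1.49 ± 0.14, adjusted p = 0.000417). *bli-2* had 108, 107 and 124 FPKM in *alh-6* libraries, against 43.1, 42.9 and 43.7 FPKM in WT libraries (log2 fold change 1.38 ± 0.07, adjusted p = 7.09e-05), and its WT values were nearly equal to each other. The most abundant members were *dpy-5* and *dpy-13*. *dpy-5* had 1551, 1545 and 1933 FPKM in *alh-6* libraries, against 829, 697 and 791 FPKM in WT libraries (log2 fold change 1.11 ± 0.10, adjusted p = 0.000311). *dpy-13* had 1501, 1417 and 1612 FPKM in *alh-6* libraries, against 872, 731 and 798 FPKM in WT libraries (log2 fold change 0.92 ± 0.08, adjusted p = 0.000225). Both stood far above the annular furrow collagens on the FPKM scale in both genotypes. *dpy-17* was the exception, with 2.38, 2.77 and 2.56 FPKM in *alh-6* libraries, against 3.52, 4.26 and 4.96 FPKM in WT libraries (log2 fold change −0.69 ± 0.17, adjusted p = 0.028). It did not pass without *alh-6* replicate 1 (adjusted p = 0.0802), *alh-6* replicate 3 (0.0624), WT replicate 2 (0.075) or WT replicate 3 (0.0987), nor without the filter on low values (0.0574). Summed over the list, the level was 5929 ± 432 FPKM in *alh-6* and 2887 ± 222 FPKM in WT (SD, n = 3 each), and in day 3 adults 21.3 ± 2.41 FPKM in *alh-6* and 32.4 ± 0.482 FPKM in WT (SD, n = 3 each).

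Across the large *col* family, 46 tested genes were higher, 30 were lower and 36 did not pass, at a median log2 fold change of 0.25. Of the 46, 1 reached the filter on low values through the *alh-6* libraries alone. The family thus divided, and its summed level hardly differed, at 61661 ± 1512 FPKM in *alh-6* and 60821 ± 2202 FPKM in WT (SD, n = 3 each). *col-176* had 12.2, 10.5 and 13.2 FPKM in *alh-6* libraries, against 4.07, 3.42 and 2.47 FPKM in WT libraries (log2 fold change 1.84 ± 0.19, adjusted p = 0.000457). *col-179* had 157, 139.9 and 117 FPKM in *alh-6* libraries, against 273, 282 and 292 FPKM in WT libraries (log2 fold change −1.04 ± 0.10, adjusted p = 0.000371). *col-8* had 111, 81.5 and 63.7 FPKM in *alh-6* libraries, against 172, 183 and 155 FPKM in WT libraries (log2 fold change −1.03 ± 0.19, adjusted p = 0.0133), with mutant values that spread more widely than those of WT. The 3 collagens listed as markers of the adult cuticle all fell. *col-19*, which is switched on as the adult cuticle is made, had 999, 941 and 792 FPKM in *alh-6* libraries, against 1322, 1364 and 1392 FPKM in WT libraries (log2 fold change −0.58 ± 0.08, adjusted p = 0.00244). *col-7* had 216, 196 and 152 FPKM in *alh-6* libraries, against 325, 353 and 341 FPKM in WT libraries (log2 fold change −0.87 ± 0.12, adjusted p = 0.00205). *col-62* had 187, 177 and 129.9 FPKM in *alh-6* libraries, against 273, 289 and 284 FPKM in WT libraries (log2 fold change −0.79 ± 0.12, adjusted p = 0.00408), and its call was lost in the fit of all 12 libraries (adjusted p = 0.327). For these 3 genes every mutant value was below every WT value, as for 20.3% of all genes tested. Of 14 tested enzymes that modify and process collagen, 2 were higher and none lower, and both are subunits of the prolyl hydroxylase that stabilises collagen chains. The number higher was 4 without *alh-6* replicate 2 and in the fit of all 12 libraries, and limma-voom on recovered reads gave 6 higher and 2 lower. *dpy-18* had 123, 136 and 162 FPKM in *alh-6* libraries, against 77.01, 65.1 and 88.4 FPKM in WT libraries (log2 fold change 0.87 ± 0.13, adjusted p = 0.00322). *phy-2* had 38.8, 35.5 and 41.3 FPKM in *alh-6* libraries, against 27.7, 24.9 and 26.3 FPKM in WT libraries (log2 fold change 0.55 ± 0.08, adjusted p = 0.00265).

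Genes of molting and of the apical matrix rose together. Of 33 genes of this list, 32 were tested, 26 were higher, 21 of them at least 2-fold, and none was lower. The median log2 fold change was 1.13 and all 32 fitted values were positive. Of the 26, *dpy-6*, *fbn-1*, *let-653* and *zmp-2* reached 1 FPKM in *alh-6* libraries alone, so that these 4 were tested only because they were high there. The counts and the median include these 4. In the other 22 at least 1 WT library reached 1 FPKM, which does not show that each would pass the filter on WT values alone. Without any 1 library, 20 to 24 members were higher. The summed level was 570.1 ± 38.03 FPKM in *alh-6* and 281 ± 16.9 FPKM in WT (SD, n = 3 each), and in day 3 adults it was 54.7 ± 1.58 FPKM in *alh-6* and 62.6 ± 0.713 FPKM in WT (SD, n = 3 each).

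Lipocalin-related proteins carry small lipophilic molecules and are part of the apical matrix that coats epidermal cells. *lpr-3* had 13.5, 10.8 and 12.5 FPKM in *alh-6* libraries, against 2.67, 3.65 and 2.62 FPKM in WT libraries (log2 fold change 2.02 ± 0.16, adjusted p = 0.000195). *lpr-4*, *lpr-5* and *lpr-6*, which lie near it on chromosome X, changed alike. Their means were 10.8 ± 1.41 FPKM in *alh-6* and 2.73 ± 0.642 FPKM in WT (SD, n = 3 each) for *lpr-4*. For *lpr-5* the means were 8.84 ± 0.961 FPKM in *alh-6* and 2.33 ± 0.303 FPKM in WT (SD, n = 3 each). *lpr-6* averaged 8.99 ± 0.528 FPKM in *alh-6* and 2.23 ± 0.471 FPKM in WT (SD, n = 3 each). Each of these 4 genes differed by more than the spread between replicates, with adjusted p-values from 0.000195 to 0.000417. *lpr-3* shares 110 exon bases with a non-coding RNA on the opposite strand, and it is not given in the sources whether counting used strand.

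*noah-1* and *noah-2* encode zona pellucida domain proteins of the apical matrix on the epidermis. *noah-1* had 17.4, 13.9 and 16.3 FPKM in *alh-6* libraries, against 4.16, 6.26 and 4.29 FPKM in WT libraries (log2 fold change 1.69 ± 0.17, adjusted p = 0.000443). *noah-2* had 16.03, 12.3 and 18.6 FPKM in *alh-6* libraries, against 4.35, 5.93 and 4.39 FPKM in WT libraries (log2 fold change 1.65 ± 0.18, adjusted p = 0.000591). In both genes the mutant mean was above 3 times the WT mean. *mlt-11*, a gene of the Kunitz protease inhibitor family needed for molting, had 10.1, 7.34 and 9.51 FPKM in *alh-6* libraries, against 2.77, 3.42 and 2.29 FPKM in WT libraries (log2 fold change 1.64 ± 0.19, adjusted p = 0.000736). *mlt-10* had 56.4, 58.5 and 77.04 FPKM in *alh-6* libraries, against 33.7, 27.05 and 27.1 FPKM in WT libraries (log2 fold change 1.12 ± 0.13, adjusted p = 0.00116). *mlt-8* had 112.3, 118 and 129.6 FPKM in *alh-6* libraries, against 60.02, 52.8 and 50.9 FPKM in WT libraries (log2 fold change 1.13 ± 0.08, adjusted p = 0.000185). Loss of *mlt-8* or *mlt-10* function has been linked to failed molts. *acn-1*, an ACE-like protein without the catalytic residues of the peptidase that is also needed for molting, had 43.4, 44.7 and 52.9 FPKM in *alh-6* libraries, against 22.6, 20.5 and 21.3 FPKM in WT libraries (log2 fold change 1.12 ± 0.09, adjusted p = 0.000195). *zmp-2*, a matrix metalloprotease, had 2.72, 2.47 and 3.23 FPKM in *alh-6* libraries, against 0.476, 0.483 and 0.627 FPKM in WT libraries. It passed the filter on low values through its *alh-6* libraries alone, so its difference is given here without support from the test.

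The astacin metalloproteases *nas-36* and *nas-37*, which act in the shedding of the old cuticle, were also higher. *nas-36* had 22.6, 24.6 and 25.1 FPKM in *alh-6* libraries, against 11.9, 11.1 and 13.7 FPKM in WT libraries (log2 fold change 0.97 ± 0.10, adjusted p = 0.000471). *nas-37* had 11.9, 10.2 and 11.5 FPKM in *alh-6* libraries, against 6.75, 8.48 and 6.66 FPKM in WT libraries (log2 fold change 0.61 ± 0.13, adjusted p = 0.0141), and without WT replicate 1 it did not pass (adjusted p = 0.0515). Over the astacin family 28 genes were tested, 11 higher and 2 lower, and without any 1 library 6 to 10 were higher. The 2 lower astacins were *nas-9* and *nas-20*. *nas-9* had 3.61, 4.12 and 3.56 FPKM in *alh-6* libraries, against 7.19, 7.44 and 7.67 FPKM in WT libraries (log2 fold change −0.97 ± 0.13, adjusted p = 0.00143). *nas-20* had 13.5, 15.5 and 12.5 FPKM in *alh-6* libraries, against 26.7, 28.1 and 24.97 FPKM in WT libraries (log2 fold change −0.94 ± 0.10, adjusted p = 0.000514). Cuticlins are insoluble proteins of the cuticle. Of 17 tested cuticlin genes 3 were higher and none was lower, and without any 1 library 2 to 4 were higher. *cut-2* made up most of their summed level, with 526, 494 and 524 FPKM in *alh-6* libraries, against 317, 280.5 and 276 FPKM in WT libraries (log2 fold change 0.82 ± 0.07, adjusted p = 0.000225).

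**Figure D3:**
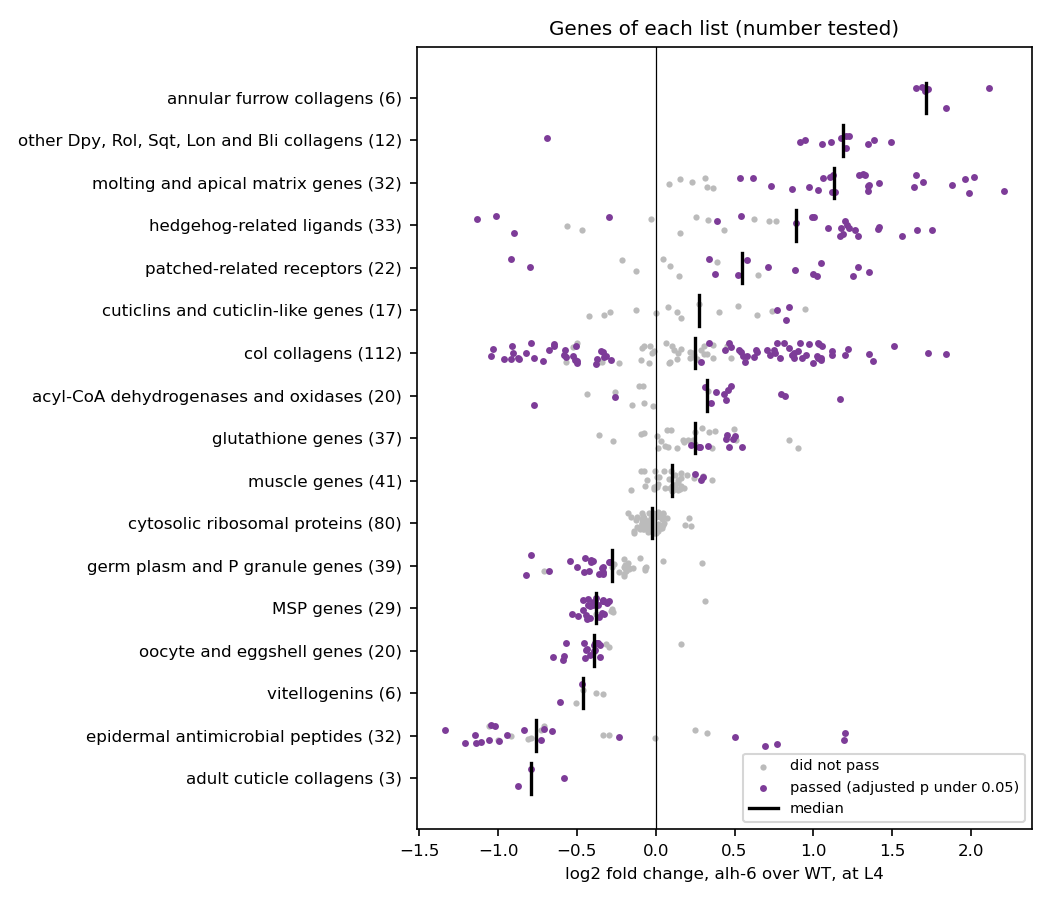
Each point is a gene, placed by its log2 fold change (*alh-6* over WT) at L4 within its list, and the number of genes tested is given in parentheses. Purple points passed an adjusted p under 0.05 in limma, grey points did not, and black bars are medians, from 1.72 for the annular furrow collagens to −0.79 for the adult cuticle collagens.

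Hedgehog-related ligands are a large family in *C. elegans*, made of warthog (*wrt*), groundhog (*grd*) and ground-like (*grl*) genes expressed mainly in epidermal and support cells, and patched-related (*ptr*) genes encode multipass membrane proteins related to their receptors in other animals. Of 33 tested ligands 19 were higher, 15 of them at least 2-fold, and 4 were lower, at a median log2 fold change of 0.89. The other 26 ligands in the table did not reach the filter on low values, and 1 of the 19, *grd-12*, reached it through the *alh-6* libraries alone. *wrt-2* had 5.22, 4.796 and 5.76 FPKM in *alh-6* libraries, against 1.21, 1.63 and 1.67 FPKM in WT libraries (log2 fold change 1.75 ± 0.18, adjusted p = 0.000491). *wrt-1* had 10.7, 10 and 13.99 FPKM in *alh-6* libraries, against 2.84, 4.03 and 3.95 FPKM in WT libraries (log2 fold change 1.65 ± 0.18, adjusted p = 0.000615). *qua-1*, a ligand-related gene needed for molting that is also in the molting list, had 28.9, 26.1 and 34.99 FPKM in *alh-6* libraries, against 10.9, 10.8 and 11.5 FPKM in WT libraries (log2 fold change 1.42 ± 0.11, adjusted p = 0.000185). Each of these 3 genes had its lowest mutant value above its highest WT value. The largest falls were in ground-like and groundhog genes. *grl-21* had 39.9, 40.7 and 28.5 FPKM in *alh-6* libraries, against 78.4, 78.5 and 79.8 FPKM in WT libraries (log2 fold change −1.13 ± 0.13, adjusted p = 0.000839). *grd-3* had 22, 16.5 and 16.4 FPKM in *alh-6* libraries, against 34.8, 45.4 and 31.2 FPKM in WT libraries (log2 fold change −1.01 ± 0.16, adjusted p = 0.00423). Members of 1 family thus moved in both directions.

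Of 22 tested patched-related genes 12 were higher and 2 lower, with a median log2 fold change of 0.55. *ptr-4* had 16.1, 18.8 and 22.2 FPKM in *alh-6* libraries, against 8.45, 7.06 and 6.56 FPKM in WT libraries (log2 fold change 1.35 ± 0.14, adjusted p = 0.000532). *ptr-18* had 23.8, 25.5 and 31.4 FPKM in *alh-6* libraries, against 12.8, 10.3 and 9.96 FPKM in WT libraries (log2 fold change 1.28 ± 0.13, adjusted p = 0.000491). The 2 that fell were *ptr-8* and *ptr-13*. *ptr-8* had 9.72, 9.17 and 7.18 FPKM in *alh-6* libraries, against 15.5, 16.3 and 17.5 FPKM in WT libraries (log2 fold change −0.92 ± 0.13, adjusted p = 0.00205). *ptr-13* had 4.22, 3.64 and 3.46 FPKM in *alh-6* libraries, against 5.97, 7.17 and 6.72 FPKM in WT libraries (log2 fold change −0.80 ± 0.14, adjusted p = 0.00638). In these 4 genes no mutant value fell within the WT range.

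Genes that time larval development were listed to describe the stage of the animals. Of 19 tested genes 6 were higher and 1 lower, and the median log2 fold change was 0.30. *lin-42*, the worm relative of the clock gene *period*, whose mRNA rises and falls in each molting cycle, had 58.6, 56.4 and 58.7 FPKM in *alh-6* libraries, against 33.4, 33.3 and 31.3 FPKM in WT libraries (log2 fold change 0.82 ± 0.06, adjusted p = 0.000185). *bed-3*, a zinc finger gene needed for molting, had 8.33, 8.75 and 9.52 FPKM in *alh-6* libraries, against 4.56, 4.04 and 3.46 FPKM in WT libraries (log2 fold change 1.13 ± 0.14, adjusted p = 0.00116). *grh-1*, a Grainyhead factor of the epidermis, had 7.09, 7.03 and 8.71 FPKM in *alh-6* libraries, against 4.29, 3.48 and 4.21 FPKM in WT libraries (log2 fold change 0.91 ± 0.15, adjusted p = 0.00401). The replicate values of *lin-42* lay close together in both genotypes, and no value of these 3 genes crossed into the other genotype. The 1 lower gene was *lin-41*, which acts in the larval to adult switch and in oocytes and is in the oocyte list as well, with 26.6, 25.99 and 26.5 FPKM in *alh-6* libraries, against 32.9, 33.1 and 35.1 FPKM in WT libraries (log2 fold change −0.35 ± 0.07, adjusted p = 0.00884).

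In all, 12 of the 19 tested timing genes did not pass, and the 6 higher genes include members not named here. Among those that did not pass were *nhr-23*, *nhr-25*, *lin-29* and *elt-3*. *nhr-23*, a receptor that drives molting genes, had 18.5, 18.5 and 21.8 FPKM in *alh-6* libraries, against 21.3, 21.1 and 23.1 FPKM in WT libraries (log2 fold change −0.16 ± 0.09, adjusted p = 0.277), and its values overlapped between the genotypes. *nhr-25*, which acts with it in the epidermis, had 1.55, 2.05 and 2.37 FPKM in *alh-6* libraries, against 1.22, 1.004 and 1.01 FPKM in WT libraries (log2 fold change 0.81 ± 0.24, adjusted p = 0.051). Its mutant values were all above WT, and it passed under 7 of the alternatives run, at adjusted p-values from 0.00949 (limma-voom) to 0.0489 (pseudocount of 1). *lin-29*, the factor that ends larval development in the epidermis, had 6.22, 5.13 and 6.16 FPKM in *alh-6* libraries, against 5.25, 5.28 and 5.14 FPKM in WT libraries (log2 fold change 0.15 ± 0.13, adjusted p = 0.452), and its values overlapped. *elt-3*, a GATA factor of the epidermis, had a log2 fold change of −0.29 ± 0.10 (SE, adjusted p = 0.0857).

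Of the germline lists, those of the major sperm proteins and of oocytes were mostly lower at L4. The level of the major sperm proteins (MSP), which move sperm and signal to oocytes, was lower for 24 of 29 tested genes and higher for none, at a median log2 fold change of −0.38. Their sum was 5953 ± 404 FPKM in *alh-6* and 7681 ± 238 FPKM in WT (SD, n = 3 each). Since near-identical copies share reads, the sum is the safer value. Without any 1 library 19 to 25 genes were lower, and in the fit of all 12 libraries none was, where the L4 and day 3 libraries share 1 estimate of the spread and MSP genes in day 3 adults summed to 7.12 ± 1.09 FPKM in *alh-6* and 10.03 ± 5.71 FPKM in WT (SD, n = 3 each). *msp-65* had 111, 128 and 117 FPKM in *alh-6* libraries, against 158, 177 and 179.6 FPKM in WT libraries (log2 fold change −0.53 ± 0.08, adjusted p = 0.00269). *msp-38* had 80.4, 106 and 86.05 FPKM in *alh-6* libraries, against 127, 130.4 and 124 FPKM in WT libraries (log2 fold change −0.49 ± 0.10, adjusted p = 0.0113). In both, every mutant value was below every WT value.

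Oocyte and eggshell genes were in most cases lower as well. Of 20 tested genes 17 were lower and none higher, at a median log2 fold change of −0.39, and without any 1 library 14 to 18 were lower. *perm-2* and *perm-4* encode proteins of the permeability barrier of the eggshell. *perm-2* had 145, 158 and 142 FPKM in *alh-6* libraries, against 222, 229.7 and 248 FPKM in WT libraries (log2 fold change −0.65 ± 0.07, adjusted p = 0.000584). *perm-4* had 203, 223 and 169 FPKM in *alh-6* libraries, against 287, 312 and 292 FPKM in WT libraries (log2 fold change −0.59 ± 0.10, adjusted p = 0.00494). No mutant value of these genes reached the lowest WT value. The sum of the list was 1784 ± 77.4 FPKM in *alh-6* and 2419 ± 108 FPKM in WT (SD, n = 3 each), and in day 3 adults it was 13932 ± 680.2 FPKM in *alh-6* and 13506 ± 214 FPKM in WT (SD, n = 3 each).

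Germ plasm and P granule genes, which mark and regulate germ cells, were lower for 18 of 39 members and higher for none, with a median of −0.28. Without any 1 library the number was 11 to 14, with the lowest without WT replicate 3. *meg-1*, which acts in P granule assembly in the embryonic germ line, had 7.96, 7.45 and 6.05 FPKM in *alh-6* libraries, against 11.7, 12.5 and 12.9 FPKM in WT libraries (log2 fold change −0.79 ± 0.13, adjusted p = 0.00378). Of 31 genes of meiotic chromosomes 2 were lower (6.45%), a share close to the 7.15% of all genes tested, and the number was 6 without *alh-6* replicate 2, 1 without *alh-6* replicate 1 or any 1 of the WT libraries and 9 in the fit of all 12 libraries. 1 of the 2 was *him-8*, which pairs the X chromosomes, with 26.1, 27.4 and 29.7 FPKM in *alh-6* libraries, against 34.7, 35.3 and 36.1 FPKM in WT libraries (log2 fold change −0.35 ± 0.07, adjusted p = 0.0133). Of 54 tested sperm genes other than MSP 9 were lower (16.7%) and none higher, and without any 1 library 4 to 14 were lower. In the fit of all 12 libraries 1 of them was lower.

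Yolk proteins gave a less firm result. Of the 6 vitellogenins, *vit-1* and *vit-5* passed as lower, and all 6 had negative fitted values. *vit-5* had 343, 259.8 and 237 FPKM in *alh-6* libraries, against 423, 453 and 391 FPKM in WT libraries (log2 fold change −0.61 ± 0.13, adjusted p = 0.0165). *vit-2* had 1412, 1062 and 959 FPKM in *alh-6* libraries, against 1624, 1755 and 1437 FPKM in WT libraries (log2 fold change −0.50 ± 0.14, adjusted p = 0.0525). *vit-6* had 2499, 1886 and 1706 FPKM in *alh-6* libraries, against 2806, 3022 and 2487 FPKM in WT libraries (log2 fold change −0.46 ± 0.14, adjusted p = 0.0652). In each of these 3 genes *alh-6* replicate 1 was the highest mutant library. Without that library 6 of 6 passed, without *alh-6* replicate 2 none did, and without any 1 of the other 4 libraries 1 did. The sum was 3768 ± 768 FPKM in *alh-6* and 5205 ± 484 FPKM in WT (SD, n = 3 each), and in day 3 adults it was 17827 ± 155 FPKM in *alh-6* and 12526 ± 1549 FPKM in WT (SD, n = 3 each). Vitellogenin copies share sequence, and their individual values are uncertain for that reason.

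**Figure D4:**
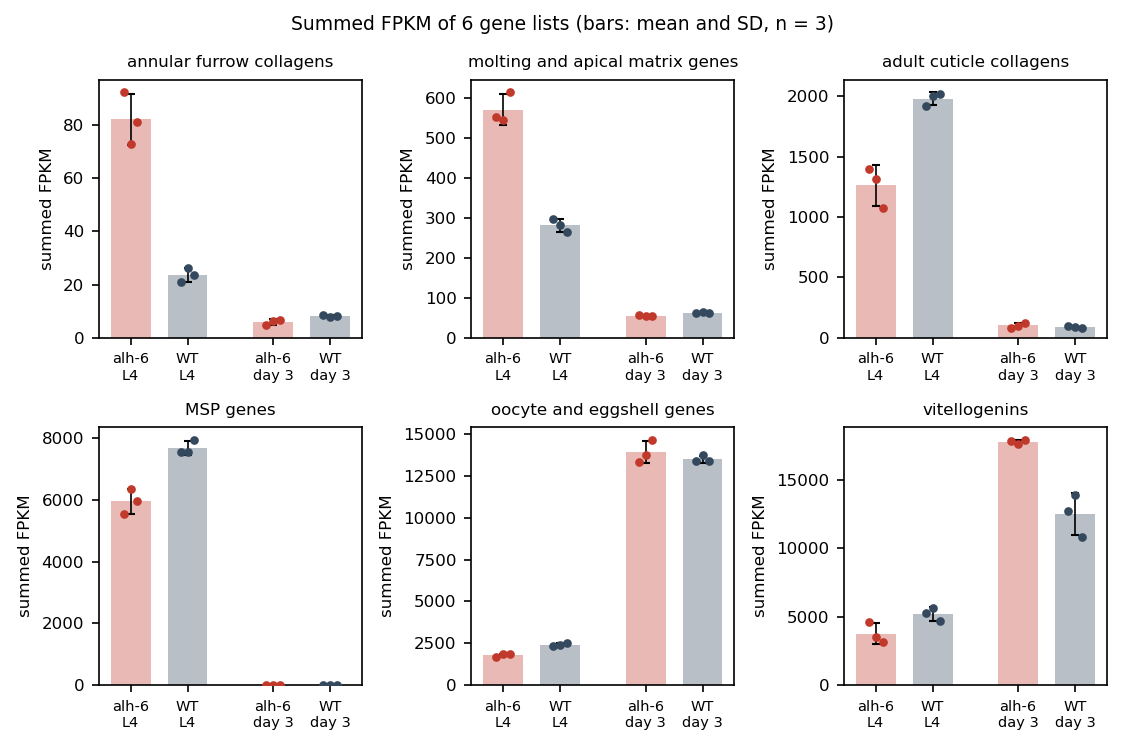
Summed FPKM of 6 gene lists in *alh-6* (red) and WT (dark blue) at L4, on the left of each panel, and in day 3 adults, on the right, where points are libraries and bars the mean and SD of 3. At L4 the annular furrow collagens summed to 72.9 to 92.3 FPKM in *alh-6* and 20.9 to 26.4 FPKM in WT, and the oocyte and eggshell genes to 1695 to 1832 FPKM in *alh-6* and 2321 to 2535 FPKM in WT.

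Small secreted peptides of the epidermis moved mainly down. This list holds *nlp*, *cnc*, *fip* and *fipr* genes that encode antimicrobial peptides or their relatives. Of 32 tested genes 15 were lower, 8 of them at least 2-fold, and 5 were higher, with a median log2 fold change of −0.76. *nlp-27*, a neighbour and relative of the infection-induced *nlp-29*, had 13.3, 14.99 and 10.8 FPKM in *alh-6* libraries, against 32.6, 28.9 and 24.7 FPKM in WT libraries (log2 fold change −1.14 ± 0.14, adjusted p = 0.00119). *fipr-13* had 5.89, 5.48 and 2.84 FPKM in *alh-6* libraries, against 10.7, 13.5 and 10.7 FPKM in WT libraries (log2 fold change −1.34 ± 0.26, adjusted p = 0.0113). *fipr-22* had 0.783, 1.199 and 1.03 FPKM in *alh-6* libraries, against 2.25, 2.28 and 2.78 FPKM in WT libraries (log2 fold change −1.21 ± 0.23, adjusted p = 0.00952), a low level at which few reads carry the value. In the other direction, *nlp-34* had 29.9, 41.4 and 36.96 FPKM in *alh-6* libraries, against 17.2, 12.7 and 17 FPKM in WT libraries (log2 fold change 1.20 ± 0.15, adjusted p = 0.00137). None of these 4 genes had overlapping values. Without any 1 library 14 to 20 members were lower and 3 or 4 higher.

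Enzymes around P5C were examined because the mutated gene acts there. Of 6 tested genes, 3 were higher and none lower, with a median log2 fold change of 0.20. *alh-13*, the worm P5C synthase that makes P5C from glutamate, had 123, 111 and 130.1 FPKM in *alh-6* libraries, against 56.8, 52.2 and 48.2 FPKM in WT libraries (log2 fold change 1.21 ± 0.08, adjusted p = 0.00017). *pycr-1*, a P5C reductase that returns P5C to proline, had 107, 103 and 116 FPKM in *alh-6* libraries, against 70.1, 64.6 and 64.03 FPKM in WT libraries (log2 fold change 0.71 ± 0.07, adjusted p = 0.000417). *oatr-1*, the ornithine aminotransferase that links ornithine with P5C, had 186, 185 and 197 FPKM in *alh-6* libraries, against 152, 148 and 143 FPKM in WT libraries (log2 fold change 0.36 ± 0.06, adjusted p = 0.00486). These 3 genes passed under every alternative run. *pycr-4*, another reductase, had 35.3, 33.9 and 37.2 FPKM in *alh-6* libraries, against 33.9, 33.7 and 36.1 FPKM in WT libraries (log2 fold change 0.04 ± 0.07, adjusted p = 0.751). *prdh-1*, the proline dehydrogenase upstream of *alh-6*, had 12.4, 14.9 and 13.9 FPKM in *alh-6* libraries, against 13.2, 12.2 and 14.8 FPKM in WT libraries (log2 fold change 0.04 ± 0.11, adjusted p = 0.85). The values of both genes overlapped between the genotypes. In day 3 adults *alh-13* averaged 7.998 ± 0.153 FPKM in *alh-6* and 7.36 ± 0.548 FPKM in WT (SD, n = 3 each), far below its L4 level.

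**Figure D5:**
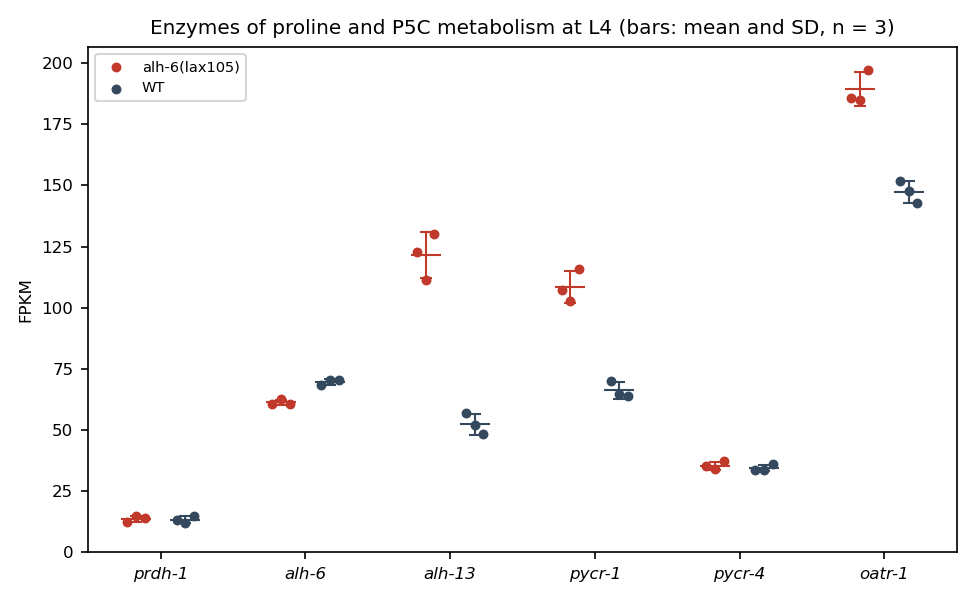
FPKM of 6 enzymes of proline and P5C metabolism in each L4 library, with *alh-6(lax105)* in red on the left and WT in dark blue on the right, and bars for the mean and SD of 3 libraries. *alh-13*, *pycr-1* and *oatr-1* are higher in all 3 mutant libraries, and *prdh-1* and *pycr-4* overlap.

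Other aldehyde dehydrogenases moved in both directions, with 2 of 10 higher and 2 lower. These are 20% each, beside 8.19% higher and 7.15% lower of all genes tested. Without WT replicate 1 or WT replicate 2, 1 was lower. *alh-3* had 61.02, 54 and 55.3 FPKM in *alh-6* libraries, against 43.1, 46.4 and 38.7 FPKM in WT libraries (log2 fold change 0.41 ± 0.08, adjusted p = 0.0129). *alh-4*, a fatty aldehyde dehydrogenase, had 135, 123 and 109 FPKM in *alh-6* libraries, against 178, 195 and 159 FPKM in WT libraries (log2 fold change −0.54 ± 0.10, adjusted p = 0.00727). Of the genes that take up riboflavin or turn it into FAD, the cofactor of many oxidoreductases, none of 4 (*rfk-1*, *flad-1*, *rft-1* and *rft-2*) passed in limma, and 0 had an unadjusted p under 0.05 or passed in limma-voom on recovered reads. *rfk-1* had 9.81, 13.4 and 9.19 FPKM in *alh-6* libraries, against 9.87, 9.93 and 10.4 FPKM in WT libraries (log2 fold change 0.08 ± 0.15, adjusted p = 0.736), and the values of all 4 genes overlapped.

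Among enzymes of lipid breakdown, 10 of 20 tested acyl-CoA dehydrogenases and oxidases were higher and 2 lower, at a median log2 fold change of 0.32. With plain eBayes 6 were higher and 1 lower. *acox-1.4*, an oxidase of the peroxisome, had 31.9, 27.9 and 30.7 FPKM in *alh-6* libraries, against 17.5, 18.02 and 15.5 FPKM in WT libraries (log2 fold change 0.82 ± 0.09, adjusted p = 0.000631). *acdh-6* had 17.7, 17.1 and 23.8 FPKM in *alh-6* libraries, against 10.3, 8.58 and 7.04 FPKM in WT libraries (log2 fold change 1.17 ± 0.17, adjusted p = 0.00251), and its call was lost in the fit of all 12 libraries (adjusted p = 0.114). *acdh-2* fell, with 84.2, 92.01 and 72.01 FPKM in *alh-6* libraries, against 137, 144 and 142 FPKM in WT libraries (log2 fold change −0.77 ± 0.09, adjusted p = 0.000821). For these 3 genes the values of the genotypes did not overlap. Of 16 desaturases and elongases 4 were higher (25%, beside 8.19% of all genes tested) and none lower. The number higher was 2 without WT replicate 1, without WT replicate 3 and without the filter on low values. *fat-6*, a stearoyl-CoA desaturase, had 146, 132 and 127 FPKM in *alh-6* libraries, against 99.4, 101 and 78.3 FPKM in WT libraries (log2 fold change 0.55 ± 0.10, adjusted p = 0.00922). None of 8 fatty acid binding proteins passed in limma, with 0 at an unadjusted p under 0.05 and 0 in limma-voom.

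Of the detoxification genes that passed, most changed by less than 2-fold. Of 37 tested glutathione genes 10 were higher and none lower, at a median log2 fold change of 0.25 and with no member at 2-fold, and without any 1 library 5 to 8 were higher. *gst-13* had 74.1, 71.9 and 74.1 FPKM in *alh-6* libraries, against 54.5, 50.7 and 45.9 FPKM in WT libraries (log2 fold change 0.55 ± 0.08, adjusted p = 0.00191). *gst-4*, a standard reporter of the factor SKN-1, had 48.2, 50.1 and 49.3 FPKM in *alh-6* libraries, against 33.4, 38.3 and 35.5 FPKM in WT libraries (log2 fold change 0.46 ± 0.07, adjusted p = 0.00315). *gcs-1*, which starts glutathione synthesis and is another SKN-1 target, had 42.5, 44.8 and 40.8 FPKM in *alh-6* libraries, against 44.7, 46.1 and 37.2 FPKM in WT libraries (log2 fold change 0.01 ± 0.09, adjusted p = 0.967), and its values overlapped. Of 7 tested SKN-1 targets 2 were higher, *gst-4* and *gst-10*, and *gst-10* did not pass without any 1 of the 6 libraries (adjusted p from 0.0513 to 0.127). Of 4 tested flavin monooxygenases 3 were higher and none lower, *fmo-5* with 16.3, 13.1 and 13.9 FPKM in *alh-6* libraries, against 9.78, 9.67 and 9.73 FPKM in WT libraries (log2 fold change 0.56 ± 0.11, adjusted p = 0.00919). Beside 8.19% higher and 7.15% lower of all genes tested, 10 of 42 tested cytochrome P450 genes were higher (23.8%) and 5 lower (11.9%). Of 48 tested UDP-glucuronosyltransferases 7 were higher (14.6%) and 5 lower (10.4%). Without any 1 library these were 5 to 8 higher and 1 to 4 lower P450 genes, and 3 to 6 higher and 2 to 6 lower transferases. *cyp-37B1* had 3.45, 4.63 and 5.21 FPKM in *alh-6* libraries, against 1.99, 1.87 and 1.696 FPKM in WT libraries (log2 fold change 1.20 ± 0.19, adjusted p = 0.00387). *ugt-63* had 5.76, 5.24 and 3.68 FPKM in *alh-6* libraries, against 10.3, 14.04 and 8.92 FPKM in WT libraries (log2 fold change −1.16 ± 0.21, adjusted p = 0.00745). Of 20 tested antioxidant enzymes 1 was higher and 1 lower (5% each), shares below those of all genes tested. *trx-3*, an intestinal thioredoxin, was the higher one, with 125, 122 and 104.8 FPKM in *alh-6* libraries, against 59.2, 67.2 and 45.7 FPKM in WT libraries (log2 fold change 1.04 ± 0.14, adjusted p = 0.00187).

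Proteases and lectins of the gut and body surface gave a few large changes. *asp-12*, an aspartyl protease, had 69.7, 63.9 and 62.3 FPKM in *alh-6* libraries, against 23.8, 21.8 and 20.8 FPKM in WT libraries (log2 fold change 1.56 ± 0.08, adjusted p = 7.09e-05). *cpz-1*, a cathepsin Z relative needed for molting, had 699, 635 and 634 FPKM in *alh-6* libraries, against 388, 395 and 298 FPKM in WT libraries (log2 fold change 0.87 ± 0.11, adjusted p = 0.0012). *asp-12* rose with little spread between replicates, while the WT values of *cpz-1* ranged from 298 to 395 FPKM. Of 21 tested cathepsin and aspartyl proteases 5 rose in all and 1 fell, while 9 rose in the fit of all 12 libraries. Of 78 tested C-type lectins 10 were higher (12.8%) and 7 lower (8.97%), beside 8.19% and 7.15% of all genes tested. Of the 10, 2 reached the filter on low values through the *alh-6* libraries alone. Without any 1 library 4 to 6 lectins were higher. *clec-180* had 10.8, 8.84 and 12.2 FPKM in *alh-6* libraries, against 3.03, 3.48 and 3.57 FPKM in WT libraries (log2 fold change 1.62 ± 0.15, adjusted p = 0.000314). *clec-4* had 9.62, 8.36 and 7.59 FPKM in *alh-6* libraries, against 16.6, 15.96 and 15.8 FPKM in WT libraries (log2 fold change −0.92 ± 0.11, adjusted p = 0.000985). Of 85 tested F-box genes, which encode adaptors for protein degradation, 14 were lower (16.5%, beside 7.15% of all genes tested). None was higher, against 1 higher in the fit of all 12 libraries. The number of lower F-box genes was 5 without WT replicate 1, 8 without WT replicate 2 and 8 without *alh-6* replicate 2. Among genes that averaged 5 FPKM or more, the largest fall was in an F-box gene, *fbxc-58*, with 3.03, 2.29 and 1.601 FPKM in *alh-6* libraries, against 8.48, 8.74 and 6.497 FPKM in WT libraries (log2 fold change −1.77 ± 0.23, adjusted p = 0.00145). Among the largest rises outside the cuticle, *scb-1* had 23.8, 23.3 and 22.01 FPKM in *alh-6* libraries, against 5.17, 8.23 and 5.299 FPKM in WT libraries (log2 fold change 1.90 ± 0.17, adjusted p = 0.000265). *dao-2* had 76.9, 70.05 and 80.5 FPKM in *alh-6* libraries, against 23.1, 22.8 and 20.1 FPKM in WT libraries (log2 fold change 1.78 ± 0.08, adjusted p = 7.09e-05).

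Tissue lists moved little. Of 41 muscle genes 3 were higher (7.32%), with a median log2 fold change of 0.10, beside 8.19% higher of all genes tested. Of 16 tested intestinal genes 3 were higher (18.8%), with a median of 0.18. Of 20 tested neuronal genes 4 were higher (20%), with a median of 0.22. No gene of these 3 lists was lower. Without any 1 library 0 to 3 muscle genes, 1 to 4 intestinal genes and 1 or 2 neuronal genes were higher. None of 6 pharyngeal muscle genes passed in limma, with 0 at an unadjusted p under 0.05 and 0 in limma-voom. Of 80 cytosolic ribosomal protein genes none passed in limma, with 3 at an unadjusted p under 0.05 and 1 in limma-voom, and their median was −0.02. Of 39 tested genes of the respiratory chain and ATP synthase none passed in limma, with 4 at an unadjusted p under 0.05 and 2 in limma-voom. Of 65 mitochondrial ribosomal protein genes none passed, with 2 at an unadjusted p under 0.05 and 0 in limma-voom. Insulin-like peptides and lysozymes also gave no gene that passed in limma, with 3 of 19 and 5 of 11 tested at an unadjusted p under 0.05, and 0 and 1 in limma-voom.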

How the data were processed

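RNA was taken from whole worms and sequenced with 3 libraries for each genotype and stage. FPKM values for every gene in each library were deposited by the authors, with tables of each group's mean read signal (reads divided by size factors) with their own log2 fold changes and p-values, which were not used. Per the labels the processing used CASAVA 1.8, Bowtie2 2.2.3, TopHat2 2.0.12, HTSeq 0.6.1, DESeq 1.18.0 and ce11, with roles and strand settings not given in the sources used here. Joining FPKM with the mean signal gave whole reads within 0.01 for 100% of the values, which gave the depth. Replicate libraries were more different than counting noise allows (chi-square per degree of freedom 3.62 to 18.0). The study describes its experiments as biological triplicates, and the labels do not say how the cultures of the 3 libraries were kept apart.

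log2(FPKM + 0.1) was fitted with limma 3.58.1 in R 4.3.3 (lmFit, eBayes with trend and robust variance) to the 13851 genes that reached 1 FPKM in 3 or more libraries. Genes passed at a Benjamini-Hochberg adjusted p under 0.05 over all genes tested, and fold changes on this scale understate those of low genes. The values after ± are SD for levels and SE for fold changes. Positions, symbols and exon overlaps came from WBcel235, Ensembl release 115. Exon bases on the same strand are also shared by *gst-4* with *dhs-12* (65), *mlt-10* with *lips-7* (109) and *acdh-2* with *ins-13* (87). *mlt-11* shares 90 and 112 such bases with non-coding RNAs. Further named genes share exon bases with neighbours on either strand. Of 49 gene lists, those described above were used, and the scripts were tested on simulated data. The members and lists were chosen with earlier results of these data known.

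The rule named *alh-6*, the 12 largest rises and falls among genes averaging 5 FPKM or more whose genotypes did not overlap, the 2 largest rises and falls of each list, and all members of short lists, and the text gives those that bear on a group it describes. *rol-6*, *sqt-1*, *dpy-5*, *dpy-13*, *col-19*, *noah-1*, *noah-2*, *mlt-8*, *mlt-10*, *mlt-11*, *acn-1*, *qua-1*, *nas-36*, *nas-37*, *lin-42*, *nhr-23*, *nhr-25*, *lin-29*, *elt-3*, *nlp-27*, *dpy-6*, *fbn-1*, *let-653* and *grd-12* were chosen after their values were seen. *dpy-4*, *sqt-2*, *sqt-3*, *lon-3* and *swm-1* were likewise named outside the rule, as members of lists described above.

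The fits were repeated with a pseudocount of 1 or 0.01, without the low-value filter, after median-ratio rescaling, with plain eBayes, a replicate block, all 12 libraries in 1 fit, leaving out each library, and, chosen after seeing the data, limma-voom and a filter of 10 recovered reads.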

Additional observations from a re-analysis of the deposited data

Results flagged for a closer look

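The effect of the *alh-6* genotype differed between the stages for 70 of the 109 named genes looked at, by the genotype by stage term of limma fitted to all 12 libraries (14497 genes, of which 7.38% passed at an adjusted p under 0.05). Each value below is the log2 effect in day 3 adults minus that at L4, so a negative value means that the mutant was higher relative to WT at L4 than in day 3 adults. The genes were named for their L4 values, and the same L4 libraries give the L4 side of this difference, so these values are not independent of the naming and their number is not to be read against that share. In every gene below except *gst-4* the difference had the opposite sign to the L4 fold change.

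Among collagens, the difference was −3.06 for *dpy-2*, −2.62 for *dpy-3*, −3.21 for *dpy-7*, −1.46 for *dpy-8*, −1.95 for *dpy-9* and −1.91 for *dpy-10*. It was −0.59 for *dpy-4*, −0.99 for *dpy-5*, −1.17 for *rol-6*, −1.74 for *sqt-2*, −1.88 for *sqt-3* and −1.49 for *lon-3*. Collagens that were lower at L4 had 1.39 for *col-8*, 0.78 for *col-19* and 0.86 for *col-179*, and the hydroxylase subunits had −0.86 for *dpy-18* and −0.67 for *phy-2*. *dpy-2*, *dpy-3*, *dpy-7*, *dpy-8*, *dpy-9*, *sqt-2*, *rol-6* and *lon-3* did not reach 1 FPKM in 3 or more of the day 3 libraries. The day 3 side of their difference thus rests on low values.

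Genes of molting and the matrix had −2.81 for *lpr-3*, −3.77 for *lpr-4*, −2.98 for *lpr-5*, −3.53 for *lpr-6*, −2.72 for *noah-1* and −2.17 for *noah-2*. Further molting genes had −1.97 for *mlt-8*, −1.09 for *mlt-10*, −1.94 for *mlt-11*, −1.77 for *acn-1*, −2.46 for *zmp-2*, −2.15 for *fbn-1*, −1.79 for *let-653* and −1.89 for *cut-2*. *zmp-2*, *fbn-1* and *let-653*, and *grd-12* in the next family, reached 1 FPKM at L4 in the *alh-6* libraries alone, so their values are given without support from this test. For astacins the difference was −1.12 for *nas-36*, −0.85 for *nas-37*, 0.80 for *nas-9* and 0.66 for *nas-20*. Hedgehog-related ligands had −2.50 for *wrt-1*, −2.43 for *wrt-2*, −1.35 for *qua-1*, 2.27 for *grl-21*, 0.93 for *grd-3* and −2.10 for *grd-12*, and patched-related genes −2.41 for *ptr-4*, −1.22 for *ptr-18*, 0.89 for *ptr-8* and 0.78 for *ptr-13*. Timing genes had −1.31 for *bed-3*, −1.25 for *nhr-25* and 0.42 for *lin-41*. In WT, *dpy-7*, *lpr-3* and *wrt-1* averaged 0.799, 0.512 and 0.43 FPKM in day 3 adults, so that for such genes the day 3 side of the difference rests on few reads. *lpr-3*, *lpr-4*, *lpr-5*, *lpr-6*, *mlt-11*, *acn-1*, *zmp-2*, *fbn-1* and *nas-36* did not reach 1 FPKM in 3 or more of the day 3 libraries. Neither did *wrt-1*, *wrt-2*, *qua-1*, *grl-21*, *grd-12*, *ptr-4*, *ptr-18* and *nhr-25*.

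Germline and yolk genes had 1.74 for *msp-38*, 0.82 for *perm-2*, 0.62 for *meg-1*, 0.69 for *vit-1*, 1.02 for *vit-2*, 1.05 for *vit-5* and 1.10 for *vit-6*. All MSP genes together summed to only 7.12 FPKM in *alh-6* and 10.03 FPKM in WT day 3 adults. The day 3 side of the *msp-38* value thus rests on few reads. Its L4 difference did not pass in this limma fit of all 12 libraries (adjusted p = 0.244). Peptides of the epidermis had −3.34 for *nlp-34* and 1.48 for *fipr-22*. Enzymes had −1.09 for *alh-13*, −0.45 for *oatr-1*, −0.63 for *alh-3*, 0.51 for *alh-4*, −0.56 for *fat-6* and 1.21 for *ugt-63*. The difference for *gst-4* was 1.182, the mutant being further above WT in day 3 adults than at L4. Other genes had −2.12 for *asp-12*, −0.94 for *cpz-1*, −2.21 for *clec-180*, 0.98 for *clec-4*, 2.03 for *fbxc-58* and −2.76 for *dao-2*. Of these, *clec-180* did not reach 1 FPKM in 3 or more of the day 3 libraries.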

How the results depend on the processing

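Of 185 named genes other than *alh-6*, 160 passed, all 160 kept their direction under every alternative that tested them, and 115 also kept their call under all of them. Without the filter on low values 1393 genes passed and 583 were lower, and 645 were lower with plain eBayes. With a pseudocount of 1, 245 genes changed at least 2-fold, 174 higher and 71 lower. The log2 fold change of *alh-6* stayed at −0.18 and passed in the fit of all 12 libraries (adjusted p = 0.0333). Leaving out each library gave 1347 to 1750 genes in all, 759 to 861 higher and 501 to 991 lower, and 319 to 474 at 2-fold, 233 to 363 higher and 82 to 153 lower. The cause of these moves was not tested.

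Among genes that did not pass, some changed sign. Rescaling put *flad-1* at 0.000693. Leaving out each library gave log2 fold changes from −0.0289 to 0.109 for *prdh-1*, −0.0845 to 0.187 for *rfk-1*, −0.0697 to 0.0261 for *flad-1*, −0.12 to 0.0498 for *rft-2*, −0.0881 to 0.0663 for *gcs-1*, −0.274 to 0.104 for *dhs-8* and −0.0748 to 0.276 for *swm-1*.

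The replicate number as a block gave 2400 genes, 1215 higher and 1185 lower. Deviations of libraries with the same number correlated at −0.025, 0.008 and 0.184, and those of libraries with different numbers at −0.171 to 0.162. With 3 libraries a group these values cannot tell whether the numbers pair the samples. limma-voom on recovered reads gave 2782 genes and a filter of 10 recovered reads 2291, both chosen after seeing the data. Genes of few reads, such as *fipr-22*, are limited by depth, and 3 libraries a group limit every comparison.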
